A study of Homo sapiens with 12 samples.

Results

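The MARK kinases (MARK1, MARK2, MARK3 and MARK4), the TAO kinases (TAOK1, TAOK2 and TAOK3) and STK11 were examined in TRPC1-silenced Huh7 cells. These 8 genes, of 18852 genes named on the array, were taken with every probe that the platform annotation assigns to them, which gave 12 of 48803 probes. The set was put together with earlier results of these arrays known, in which MARK2 and TAOK1 were higher in silenced cells. The differences of the 8 genes between silenced and control cells are therefore given as a description, with no p-value.

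Huh7 is a well-differentiated human hepatocellular carcinoma line. Cells received 2 µg of either a TRPC1 silencing vector (siTRPC1, 6 arrays) or the empty vector (control, 6 arrays) and were harvested 48 h later. Total RNA from each was hybridised to an Illumina HumanHT-12 v3 BeadChip, and both groups carried the same GFP-expressing plasmid backbone and transfection reagent. Whole transfected cultures were used, so part of the RNA may come from cells that had not taken up the vector, and fewer cells expressing a gene cannot be told apart from less of its RNA per cell. The labels do not say whether arrays of one group came from separate cultures, so p-values measure only the spread between these samples, which may be technical.

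MARK kinases phosphorylate microtubule-associated proteins such as MAP4 and tau, which loosens their hold on microtubules, and they help set up cell polarity. STK11 (LKB1) switches on the MARKs and the other AMPK-family kinases by phosphorylating their activation loop, and TAOK1 can phosphorylate the same loop in MARKs. TAO kinases also act at the head of cascades that lead to p38 and JNK and on the Hippo kinases. In hepatocytes, MARK2 takes part in the polarity that forms bile canaliculi.

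TRPC1, the silenced channel gene, was detected on all 12 arrays. Its log2 level was 8.71, 8.54, 8.48, 8.55, 8.83 and 8.59 on siTRPC1 arrays 1 to 6, against 8.75, 8.73, 8.77, 8.73, 9.04 and 8.81 on control arrays 1 to 6. The siTRPC1 mean was lower (log2FC = -0.19, SE 0.09), with an exact two-sided permutation p = 0.0303 for this single gene and a limma adjusted p = 0.301 over all probes tested. The permutation treats the 12 arrays as independent, although neighbours in number were most alike. It was not repeated with neighbours kept together. siTRPC1 array 5 lay inside the control range and the other 5 below it. Over the whole array, 12902 probes were tested and 208 (1.61%) passed an adjusted p of 0.05 in limma, 123 (0.953%) of them higher in siTRPC1. Mean array intensity was 566 to 688 in siTRPC1 and 457 to 642 in control, where arrays 1 and 2 were the dimmest. All 9 hepatocyte markers with a named probe were detected on all 12 arrays. Markers were each read by their brightest probe. Of the markers of other cells, COL1A2 (1 of 4 fibroblast genes), CD68 (1 of 4 blood genes) and PECAM1 (1 of 3 endothelial genes) were detected on all 12 arrays and the others on none. Summed hepatocyte marker intensity was 176293 to 237326 in siTRPC1 and 186012 to 212414 in control. Summed endothelial marker intensity was 1890 to 2504 in siTRPC1 and 1369 to 2453 in control, blood marker intensity was 1908 to 2573 in siTRPC1 and 1759 to 2213 in control, and fibroblast marker intensity was 254 to 567 in siTRPC1 and 223 to 432 in control. The part of these signals in the kinase values was not tested. In each group, the array most like a given array was its neighbour in number (1 with 2, 3 with 4, 5 with 6).

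Not all of the 8 kinases gave a signal in Huh7 cells. Probes of MARK3, TAOK1, TAOK2 and STK11 were detected (detection p under 0.01) on 12 of 12 arrays and one MARK2 probe on 9. MARK1, MARK4 and TAOK3, each with 1 probe, were detected on no array, with log2 values of 5.04 to 5.62 for MARK1, 5.16 to 6.03 for MARK4 and 4.95 to 5.72 for TAOK3. Such values lie at background and their means differed by 0.04, -0.03 and -0.16 between siTRPC1 and control. The other 4 probes that were not tested belong to MARK2 (2 probes) and TAOK2 (2 probes) and were detected on 0 to 2 arrays. In all, 5 of the 12 probes, 1 for each of 5 genes, reached detection on at least 6 arrays and entered the fit. The presence of a message below the detection limit cannot be read from these probes.

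**Figure D1:**
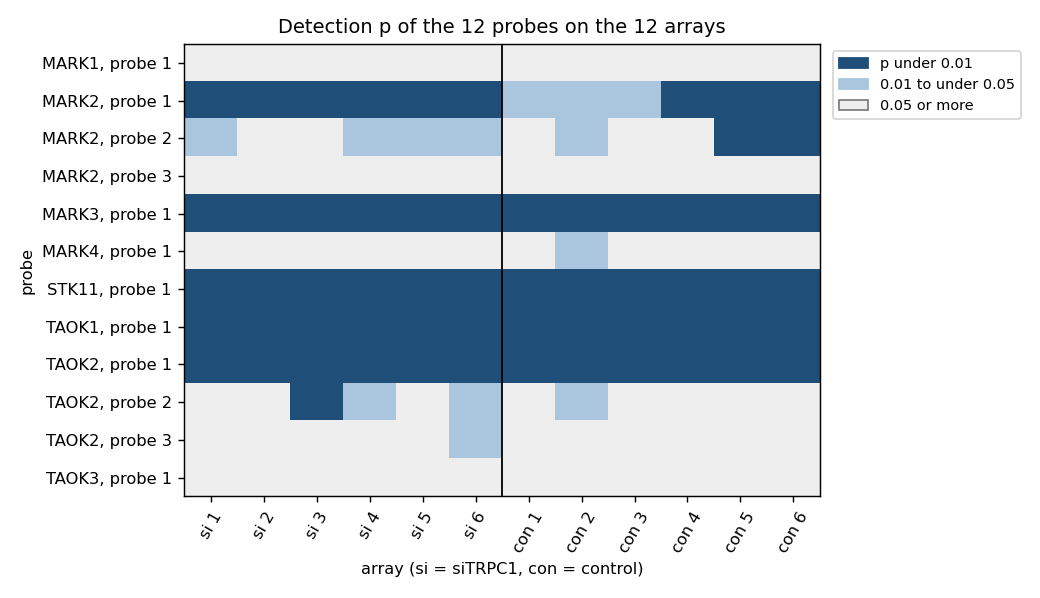
Detection p of each of the 12 probes (rows) on each array (columns, siTRPC1 arrays left, control arrays right), in 3 classes by colour. MARK3, STK11, TAOK1 and the first TAOK2 probe are dark on all 12 arrays, the first MARK2 probe is dark on 6 siTRPC1 and 3 control arrays, and MARK1, MARK4 and TAOK3 are dark on none.

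Of the 5 probes tested, those of MARK2 and TAOK1 were called, both higher in siTRPC1, and those of MARK3, TAOK2 and STK11 were not. Among all probes tested, 1.61% were called in either direction and 0.953% higher in siTRPC1. The MARK2 call was lost in 9 of the 12 fits that left out 1 array as well as with adjoining arrays as a random block, with array weights, without control arrays 1 and 2 and without the detection filter. The TAOK1 call was lost without siTRPC1 array 5 and control array 5 together, and both calls were lost by the methods' t-test after adjustment. All 5 probes had a higher siTRPC1 mean, as had 48.8% of the probes tested. For MARK3 the difference was only 0.0005 (SE 0.11) and changed sign between settings (-0.06 to 0.09). Since the set was chosen on the difference between the groups, nothing is read from these counts. The largest difference that was not called was that of TAOK2, 0.29, and the smallest that was called that of TAOK1, 0.84.

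MARK2, the kinase also known as PAR-1b, was measured by a probe designed on NM_004954. Its log2 level was 7.85, 8.35, 8.44, 8.43, 8.26 and 8.63 on siTRPC1 arrays 1 to 6, against 6.79, 6.50, 6.62, 7.25, 8.34 and 8.29 on control arrays 1 to 6. All siTRPC1 arrays were high, control arrays 1 to 4 lay below every one of them, and control arrays 5 and 6 lay inside the siTRPC1 range. MARK2 averaged 8.33 ± 0.27 in siTRPC1 and 7.30 ± 0.83 in control (SD, n = 6 each), which is a log2FC of 1.03 (SE 0.26) or 2.04-fold, with 3 of the 6 control values below the detection limit. On the intensity scale before normalisation the same arrays read 253, 381, 378, 336, 296 and 405 in siTRPC1 and 66.8, 50.1, 93.5, 149.5, 304 and 288 in control. The siTRPC1 arrays were needed for the probe to reach the minimum of 6 arrays. It was detected on all 6 siTRPC1 arrays and on control arrays 4 to 6, while control arrays 1 to 3 had detection p values of 0.013, 0.018 and 0.020. The spread among control arrays was wide. Only 4 of the 12902 probes tested had a larger control SD (median 0.16), whereas 1629 had a larger SD among siTRPC1 arrays.

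The other MARK2 probes did not show this difference. A further probe on NM_004954 was detected only on control arrays 5 and 6, with log2 values of 6.48, 5.88, 5.84, 6.23, 6.58 and 6.47 in siTRPC1 and 5.67, 6.22, 5.63, 5.35, 7.21 and 7.01 in control. Its highest values were those of control arrays 5 and 6, the arrays on which the called MARK2 probe was highest in control, and its group means differed by 0.06. After the group means were removed, both NM_004954 probes had r = 0.66 over the 12 arrays, a description of arrays that share libraries across probes. The third MARK2 probe, designed on NM_017490, was detected on no array and stayed between 5.02 and 5.55. The RefSeq annotation lists 21 pseudogenes of MARK2, and whether the probes also capture transcripts of these was not tested.

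**Figure D2:**
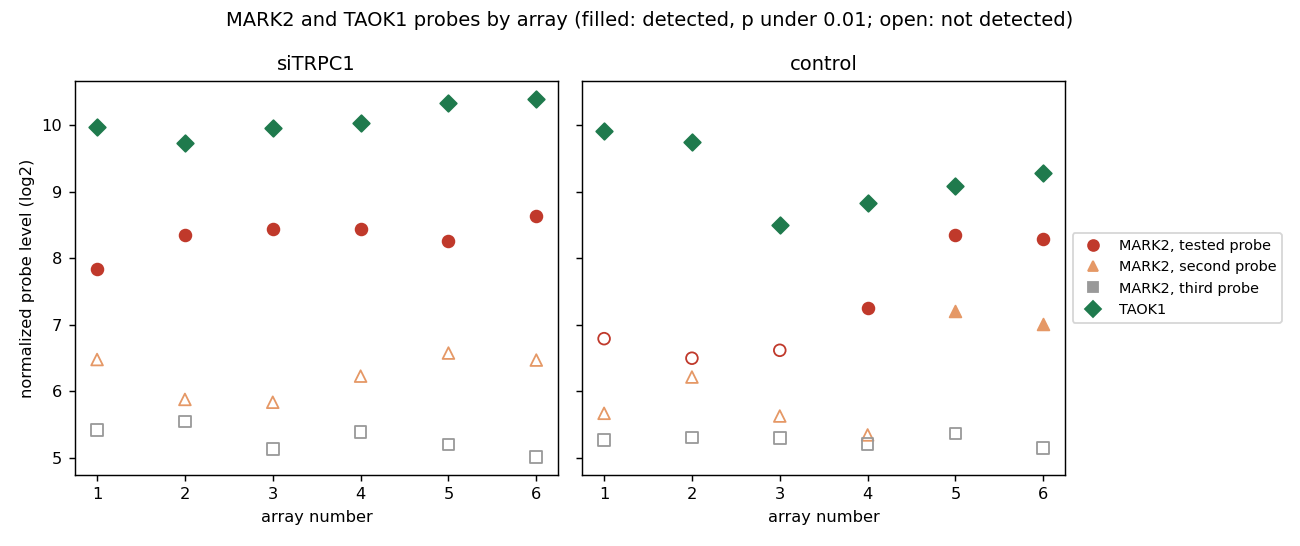
Normalised log2 level of the 3 MARK2 probes and the TAOK1 probe on siTRPC1 arrays 1 to 6 (left) and control arrays 1 to 6 (right), with filled symbols where the probe was detected. The called MARK2 probe lies between 7.85 and 8.63 in siTRPC1 and splits into 6.50 to 7.25 (arrays 1 to 4) and 8.29 to 8.34 (arrays 5 and 6) in control, while TAOK1 is highest on control arrays 1 and 2 among the control arrays (levels of different probes are not comparable).

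TAOK1, which phosphorylates both MARKs and the MAP2K kinases upstream of p38, had 1 probe (NM_020791), detected on all 12 arrays. Its log2 level was 9.96, 9.73, 9.95, 10.03, 10.34 and 10.39 on siTRPC1 arrays 1 to 6, against 9.91, 9.75, 8.49, 8.83, 9.08 and 9.27 on control arrays 1 to 6. Control arrays 3 to 6 lay below every siTRPC1 array, and control arrays 1 and 2 lay inside the siTRPC1 range. TAOK1 averaged 10.07 ± 0.25 in siTRPC1 and 9.22 ± 0.54 in control (SD, n = 6 each), a log2FC of 0.84 (SE 0.17) or 1.80-fold. The intensities before normalisation were 1146, 1011, 1077, 1022, 1301 and 1404 in siTRPC1 and 683, 586, 382, 480.3, 523 and 592 in control. On that scale every siTRPC1 array was above every control array, control array 1 was the highest control, and control array 2 lay inside the range of control arrays 3 to 6. Control arrays 1 and 2 were also the dimmest arrays (mean intensity 480 and 457). The share of all probes that separate the groups before normalisation was not counted, so nothing is read from this separation. Within groups the normalised TAOK1 level ran opposite to the mean intensity of the array (r = -0.87 over 12 arrays). Over these 12 arrays, 1.36% of tested probes had a larger absolute r, and the other tested kinases had r from -0.23 to 0.27. Over the 10 arrays other than control 1 and 2, r was -0.66 for TAOK1, -0.60 for MARK3, -0.50 for MARK2, -0.07 for TAOK2 and 0.21 for STK11. The share of probes with a larger r was not computed over those 10 arrays. The part of array brightness in the TAOK1 difference was not tested, and without control arrays 1 and 2 the log2FC was 1.15.

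The control arrays that were high for MARK2 were thus not those that were high for TAOK1. After normalisation, control arrays 5 and 6 carried the high MARK2 values and control arrays 1 and 2 the high TAOK1 values. Before it, control arrays 5 and 6 were also the highest controls for MARK2, whereas control array 2 was not high for TAOK1. Control arrays 5 and 6, like control arrays 1 and 2, were neighbours in number and most alike. Each pair may therefore not be 2 independent controls. Without control arrays 1 and 2 the MARK2 log2FC was 0.70. Without siTRPC1 array 5 and control array 5, which the study left out of its own comparison, it was 1.25 for MARK2, which was called, and 0.76 for TAOK1, which was not. Within groups MARK2 and TAOK1 had r = -0.09 over the 12 arrays. No member probe separated the groups completely on the normalised scale, against 277 (2.15%) of the probes tested.

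**Figure D3:**
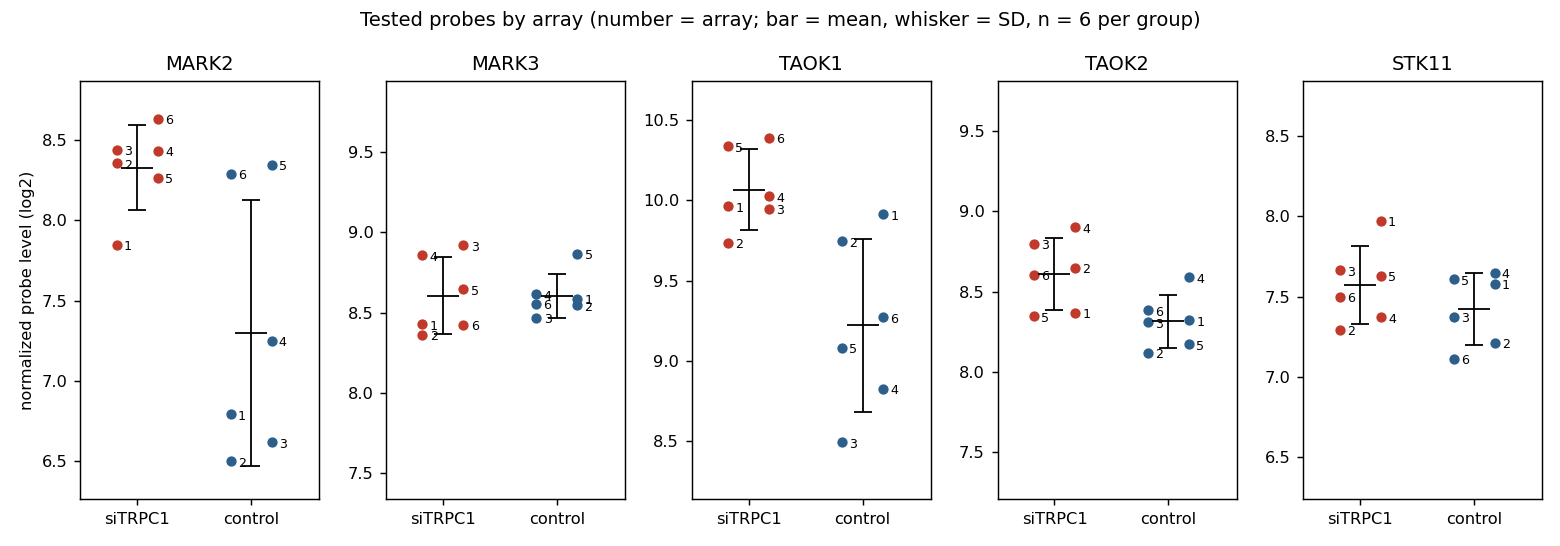
Normalised log2 level of the 5 tested probes on each array (points, numbered by array), siTRPC1 left and control right in each panel, with the mean (bar) and SD (whisker) of n = 6. All panels span the same log2 range, and the difference is 1.03 for MARK2, 0.84 for TAOK1, 0.29 for TAOK2, 0.15 for STK11 and 0.00 for MARK3.

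Promoter sequence of the 2 called genes is given because their levels were both higher in silenced cells. RefSeq (GRCh38.p14) lists 10 windows for 7 of the 8 genes, each reaching from 250 bases before a transcript start to 50 after it. The windows at the MARK2 and TAOK1 gene starts, chr11:63838860-63839159 and chr17:29390113-29390412, both on the plus strand, are shown 5′ to 3′, with capitals for a GC box (GGGCGG) or a CCAAT box on either strand.
MARK2: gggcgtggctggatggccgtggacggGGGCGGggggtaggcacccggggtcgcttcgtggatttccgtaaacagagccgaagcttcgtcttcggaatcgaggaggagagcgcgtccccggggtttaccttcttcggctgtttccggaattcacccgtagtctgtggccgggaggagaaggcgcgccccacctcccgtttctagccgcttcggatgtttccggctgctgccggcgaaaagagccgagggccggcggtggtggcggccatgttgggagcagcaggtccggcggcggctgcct
TAOK1: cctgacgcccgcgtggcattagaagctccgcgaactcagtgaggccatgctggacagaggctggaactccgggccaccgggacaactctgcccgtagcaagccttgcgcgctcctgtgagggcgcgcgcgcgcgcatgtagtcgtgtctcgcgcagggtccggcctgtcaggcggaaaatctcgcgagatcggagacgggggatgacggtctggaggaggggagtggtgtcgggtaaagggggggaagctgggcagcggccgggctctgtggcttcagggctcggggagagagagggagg
The MARK2 window holds 1 GC box and no CCAAT box, and the TAOK1 window neither. A second MARK2 window (chr11:63888287-63888586) holds 1 CCAAT box and 1 AP-1 match (TGANTCA), and a second TAOK1 window (chr17:29390675-29390974) holds 3 GC boxes. The GC box was found on either strand in 6 of the 10 windows of these kinases, against 45.0% of 35116 windows, and CCAAT in 5 of 10, against 34.6%. The AP-1 match was found in 1 of 10, against 7.71%. No window of these kinases held TATAAA, the CRE TGACGTCA or the E-box CACGTG, found in 11.5%, 1.85% and 7.26% of all windows. Base composition was 67.3% GC for the MARK2 and 67.7% for the TAOK1 gene start, against a median of 58.7%. A match is only a run of letters, and no motif was shared by both gene-start windows.

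The other measured kinases differed less between the groups. TAOK2, the second TAO kinase, had log2 levels of 8.37, 8.65, 8.80, 8.90, 8.35 and 8.60 in siTRPC1, against 8.32, 8.12, 8.31, 8.59, 8.17 and 8.39 in control. The siTRPC1 arrays were higher on average, with 4 of them above every control array, and means of 8.61 ± 0.22 in siTRPC1 and 8.32 ± 0.17 in control (SD, n = 6 each). The log2FC was 0.29 (SE 0.11). This probe was designed on NM_016151. Of the 2 probes on NM_004783, one was detected only on siTRPC1 array 3, at 7.51, and the other on no array.

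STK11, the upstream activator, had log2 levels of 7.97, 7.30, 7.66, 7.37, 7.63 and 7.50 in siTRPC1, against 7.58, 7.21, 7.38, 7.65, 7.61 and 7.11 in control. The groups overlapped, with means of 7.57 ± 0.24 in siTRPC1 and 7.42 ± 0.22 in control (SD, n = 6 each) and a log2FC of 0.15 (SE 0.14). MARK3, the MARK that marks CDC25C and KSR1 for binding by 14-3-3 proteins, had log2 levels of 8.43, 8.36, 8.92, 8.86, 8.64 and 8.43 in siTRPC1, against 8.59, 8.55, 8.47, 8.61, 8.87 and 8.56 in control. Its group means were 8.61 ± 0.24 in siTRPC1 and 8.61 ± 0.14 in control (SD, n = 6 each), with a log2FC of 0.00 (SE 0.11). Every MARK3 control value lay inside the siTRPC1 range.

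Within groups the 5 tested kinases showed little in common. Their 10 pairwise r values over the 12 arrays ran between -0.33 (TAOK1 with TAOK2) and 0.38 (MARK2 with MARK3). TAOK2 was the kinase that ran most against TRPC1 within groups (r = -0.67). These are descriptions over arrays that share normalisation.

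The probes most like MARK2 within groups, among 11199 named probes, were those of SFXN1, a mitochondrial serine transporter (r = 0.96), FKBP4, an HSP90 co-chaperone (0.94), REXO1 (0.93), CTNNB1, which encodes β-catenin (0.93), and CHKA, a choline kinase (0.92). SFXN1 had log2 levels of 8.57, 8.87, 9.11, 9.24, 8.99 and 9.12 in siTRPC1, against 7.74, 7.77, 8.02, 8.14, 9.06 and 9.21 in control. It was thus high on control arrays 5 and 6 and low on control arrays 1 to 4, as MARK2 was. The log2FC was 0.66 for SFXN1, 0.35 for REXO1, 0.31 for CTNNB1, 0.03 for CHKA and -0.05 for FKBP4. The probes most like TAOK1 were those of ZNF577 (r = 0.96), ARHGAP27P1 (0.96), ZNF124 (0.95), ZG16 (0.95) and SLCO1B3, a hepatocyte bile acid and drug transporter (0.94). Of these, ZNF124 had a log2FC of -0.45 and the other 4 between -0.09 and 0.05, against 0.84 for TAOK1. An r above 0.5 was reached with MARK2 by 1239 and with TAOK1 by 1906 of the 11199 named probes.

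Genes that act with these kinases were followed in 5 lists of 75 genes, of which 72 had a named probe and 50 were tested by their brightest probe. None of the 50 passed in limma in either direction, and 6 of them had an unadjusted p under 0.05, as had 1541 (17.4%) of all 8864 genes tested in the same way. By the methods' t-test 6 were under 0.05 and 0 passed after Benjamini-Hochberg adjustment. Over all these genes, 1.61% passed, 0.959% higher and 0.654% lower in siTRPC1. The median log2FC of the 50 genes was 0.02 (range -0.26 to 0.28), against -0.01 over all genes.

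The regulators and binding partners of the kinases had 19 tested genes with a median log2FC of 0.01. STRADA and STRADB, pseudokinases that hold STK11 active, had log2FCs of -0.05 (SE 0.07, adjusted p = 0.758) and 0.24 (SE 0.08, adjusted p = 0.148). CAB39 (MO25), the scaffold of that complex, had a log2FC of -0.12 (adjusted p = 0.281). The atypical protein kinase C genes PRKCI and PRKCZ, whose products phosphorylate MARK2 and move it off the membrane, had -0.18 and 0.10. TESK1 and SPRED1, binding partners of TAOK1, had log2FCs of 0.11 and 0.12. Among the 14-3-3 genes YWHAE had 0.28 (adjusted p = 0.141) and YWHAZ 0.13 (adjusted p = 0.235). Genes here and in the next lists were named for their role or after their values were seen, since none passed.

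The other AMPK-family kinases, also switched on by STK11, had 7 tested genes with a median log2FC of 0.02, with -0.07 for PRKAA1, 0.15 for SIK1 and 0.04 for NUAK1. MARK targets and polarity partners had 7 tested genes with a median of 0.01. MAP4, the microtubule-associated target of MARKs, had 0.22 (SE 0.13, adjusted p = 0.398), and PKP2 had -0.18. The brightest probes of the neuronal targets MAP2, MAPT and DCX were detected on no array. The p38 and JNK branch had 9 tested genes with a median of -0.05. In it MAP2K3, the p38 kinase that TAO kinases activate, had 0.19 (adjusted p = 0.307), MAPKAPK2, a p38 substrate kinase, 0.28 (adjusted p = 0.186) and MAPK13, a p38 isoform, -0.26 (adjusted p = 0.373). The branch was covered only in part, since MAPK14, also a p38 isoform, and MAP2K7 had no named probe. The brightest MAPK11 probe was detected on no array. The Hippo branch had 8 tested genes with a median of 0.04, with 0.04 for STK3, 0.06 for STK4, -0.20 for LATS2, 0.18 for WWC1 and -0.05 for YAP1. The brightest probes of LATS1, MOB1B, WWTR1, TEAD1 and TEAD3 were detected on no array.

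**Figure D4:**
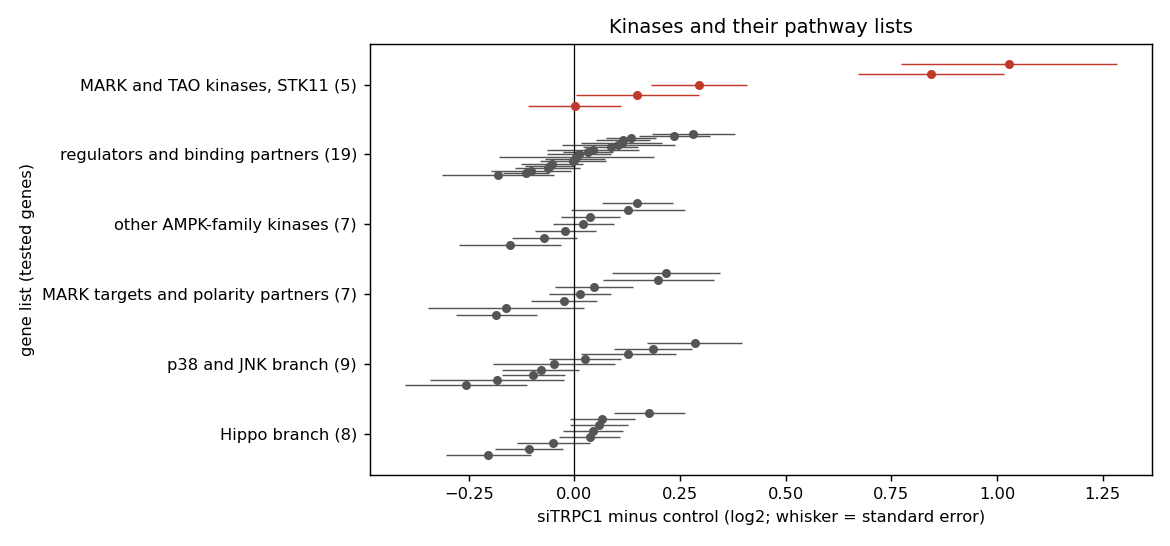
Difference between siTRPC1 and control (log2, whiskers for the standard error) of the 5 tested kinases (top) and of the 50 tested genes of the 5 lists. MARK2 at 1.03 and TAOK1 at 0.84 lie above the range of the listed genes, -0.26 to 0.28. TAOK2 at 0.29, which was not called, lies just above that range. The kinases were chosen with this difference known.

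The size of the MARK2 and TAOK1 differences was followed over 21 other settings. MARK2 stayed between 0.70 and 1.25 and TAOK1 between 0.70 and 1.15, all higher in siTRPC1. Leaving out 1 array at a time, MARK2 was called only without siTRPC1 array 1, control array 5 or control array 6, and TAOK1 in 12 of 12 fits. With TAOK1 the lowest value, 0.70, came without control array 3. These fits use the contrast on which the set was chosen and describe the settings, not the strength of either difference. In the deposited log2 values the difference was 0.84 for MARK2 and 0.80 for TAOK1. TAOK2 stayed between 0.24 and 0.38, STK11 between 0.07 and 0.24 and MARK3 between -0.06 and 0.09.

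**Figure D5:**
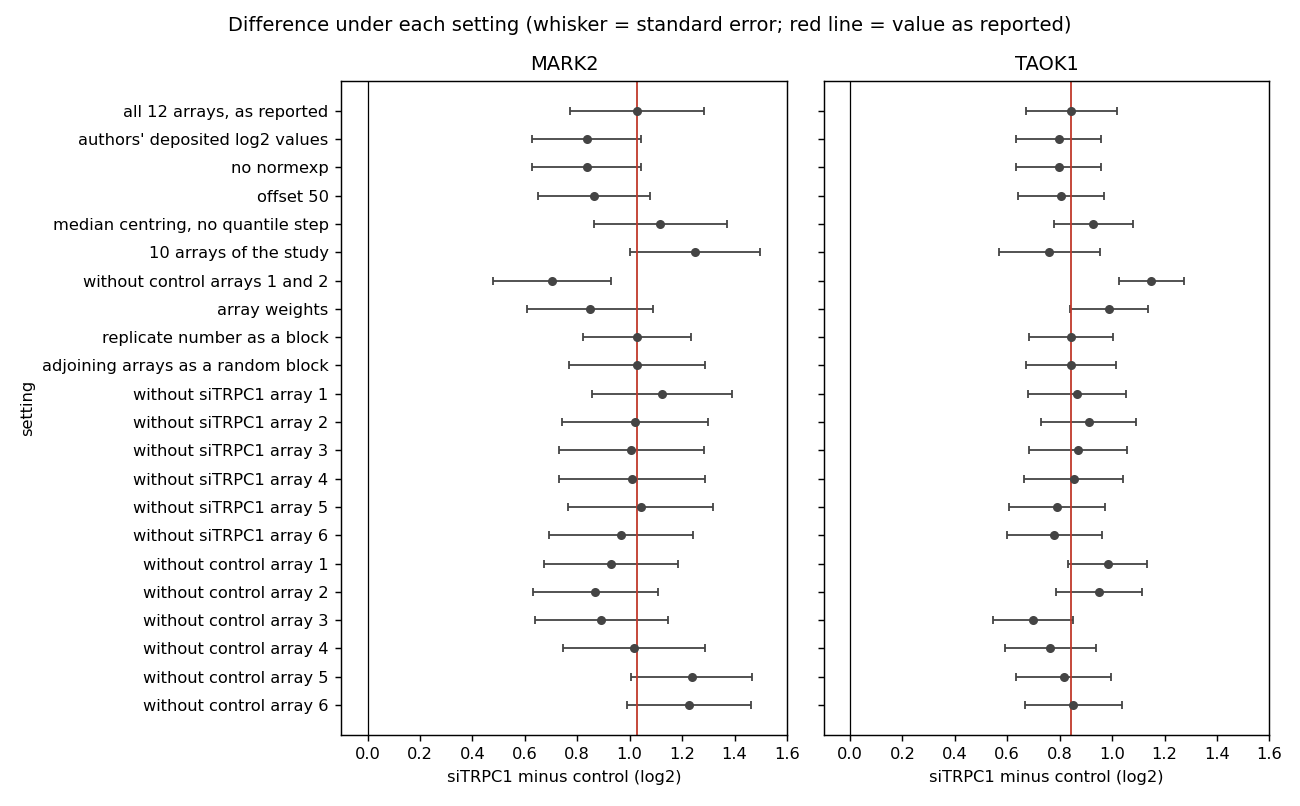
Difference between siTRPC1 and control (log2, horizontal axis) of MARK2 (left) and TAOK1 (right) under each setting (rows), with the standard error as whisker and the value over all 12 arrays as a red line. MARK2 runs from 0.70 without control arrays 1 and 2 to 1.25 over the 10 arrays of the study, and TAOK1 from 0.70 without control array 3 to 1.15 without control arrays 1 and 2.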

How the data were processed

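Total RNA of 12 Huh7 samples was measured on Illumina HumanHT-12 v3 BeadChips. The authors subtracted background in GenomeStudio, and the deposited probe intensity and detection p-value per array are that output. The deposited log2 values were quantile normalised by the authors with lumi (version not given in the sources used here). Intensities were processed here with neqc in limma 3.58.1 (R 4.3.3), which fits background from detection p-values, adds an offset of 16 and quantile normalises. A probe was tested if detected (p under 0.01) on 6 or more arrays, and the 12902 such probes were fitted with lmFit and eBayes (trend), and p-values were Benjamini-Hochberg adjusted over all of them (threshold 0.05). The study's Rank Product test was not repeated. The fit was tested on simulated data with independent noise on each array. It called 71 of 100 probes changed by 0.5 and 98 of 100 changed by 1 (log2), with 6 false calls. Each probe was given the same spread in both groups. Likeness between adjoining arrays and unequal spreads, such as those of MARK2 and TAOK1, were not simulated, so the test does not cover them.

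Gene names came from the platform annotation, in which 28098 probes had 1 symbol, 13 several and 20692 none here. Members and lists were chosen with earlier results of these data known. Genes were named as members, as TRPC1, as list genes that passed, or as the 5 named probes most like MARK2 or TAOK1 within groups. No list gene passed, and those named were picked outside this rule, for their role or after their values were seen. The number of arrays limits precision. Same-numbered arrays of the 2 groups did not deviate together (r = -0.07 to 0.03). Alternatives were the deposited log2 values, other background, normalisation and filter choices, omitted arrays, array weights, blocks and the methods' t-test.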

Additional observations from a re-analysis of the deposited data

Results flagged for a closer look

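In 12 groups of 6 arrays (MARK2, MARK3, TAOK1, TAOK2, STK11 and TRPC1 in each condition), the highest or lowest array was examined for a gap to the rest larger than Dixon's 95% limit. Chance marks about 1 group in 20. Control array 5 was marked for MARK3, at a log2 level of 8.87 against 8.47 to 8.61 on the other control arrays (ratio 0.635). It was also marked for TRPC1, at 9.04 against 8.73 to 8.81 (ratio 0.742). The study left this array and siTRPC1 array 5 out of its own comparison, because their TRPC1 values correlated poorly with PCR. That choice used the same TRPC1 array values and is not separate evidence.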

How the results depend on the processing

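Of 12902 probes, 208 passed over all 12 arrays, against 48 of all probes on the array without the detection filter, 43 with adjoining arrays as a random block (consensus correlation 0.31), 2025 by the methods' t-test unadjusted and 79 after Benjamini-Hochberg adjustment. Leaving out 1 array gave 98 to 278. Median centring gave 144 (128 higher, 16 lower in siTRPC1, against 123 and 85) and moved the median of all probes to 0.06. Of the kinases, 2 were called over all arrays and 1 without the filter (TAOK1), over the 10 arrays of the study (MARK2), without control arrays 1 and 2, with array weights or with the random block (TAOK1 each), 1 to 2 when 1 array was left out, 3 by the unadjusted t-test (MARK2, TAOK1 and TAOK2) and 0 after its adjustment. With the replicate block, 214 probes and the same 2 kinases were called, and the numbers do not pair the arrays. The kinases were chosen on this contrast, so nothing is read from how many of them were called. Of the listed genes 0 passed in every setting but the unadjusted t-test, which gave 6. The TRPC1 difference was -0.10 with median centring (exact p = 0.247) and -0.22 without control arrays 1 and 2 (exact p = 0.0571). Over the 10 arrays of the study it was -0.18 (exact p = 0.00794), but the study had left arrays out on their TRPC1 values. Leaving out 1 array gave -0.23 to -0.14 (exact p 0.00433 to 0.0606), with p above 0.05 in 5 of 12 fits (without siTRPC1 array 2, 3, 4 or 6, or control array 5). The causes were not tested. MARK2 on control arrays 1 to 3 lay near background, which limits the precision of its fold change.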
